A study of Mus musculus with 4 samples.

Results

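The 8 integrin genes described here, *Itga1*, *Itga3*, *Itga5*, *Itga6*, *Itgav*, *Itgb1*, *Itgb4* and *Itgb6*, were taken by name from the 16892 genes of a single-cell count table of the mouse epididymis and vas deferens. They were chosen as integrins of epithelium, stroma and vessels, and all 8 were in the table. The epididymis is the coiled duct in which sperm mature on their way from the testis, and the vas deferens carries them onward. Its epithelium holds principal cells, which secrete and absorb, clear cells, which acidify the lumen, and basal cells, which sit on the basement membrane. Around the tube lie stromal and smooth muscle cells, vessels and immune cells.

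The tissue came from untreated adult male FVB/NJ mice aged 10-12 weeks, with no engineered allele and no treatment in any group. The organs of 4 mice were cut into caput, corpus, cauda and vas deferens, and the 8 pieces of each region were pooled, depleted of sperm, dissociated and made into 1 library by 3′ single-cell RNA sequencing. Every region was therefore 1 library from the same pool of mice, and no value below has a replicate. The comparison that the design offers is among the cell types and, as a description, among the 4 regions.

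An integrin is a pair of 1 α chain and 1 β chain that spans the plasma membrane and ties the extracellular matrix to the cytoskeleton. The β chain encoded by *Itgb1* pairs with many α chains, among them α1 (collagen), α3 and α6 (laminin), α5 (fibronectin) and αv, whereas β4 pairs only with α6 and β6 only with αv. In stratified epithelia, α6β4 anchors hemidesmosomes, the junctions that rivet basal cells to the basement membrane, and αvβ6 is an epithelial receptor that can release active TGF-β from its latent form.

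The libraries held 8880 cells, between 1433 (caput) and 3506 (vas deferens), with 4408989 to 10744928 unique molecular identifiers (UMIs, counts of single captured mRNA molecules) per library. The authors' labels divided the cells into 7 types and 34 populations, and types were far from equal in depth, with a median of 934.5 UMIs in principal cells and 4430 in clear cells. In 5 of the 7 types the summed markers of the type were highest in that type. The exceptions were the principal list of general epithelial genes, which was at 2912 UMIs per 1000000 UMIs in principal cells and 5923 in basal cells, and the immune list, at 4261 in immune cells and 20561 in principal cells, where 196638 of its UMIs were *Cd52*, a gene known for its abundant expression in epididymal epithelium. Muscle cells were nearly all from the vas deferens (437 of 502) and the cauda (58), with 0 in the caput. Between libraries, 43 barcodes recurred, and 178 cells, 2.00% of all, were called as doublets.

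Levels are the UMIs that all cells of a group held for a gene, per 1000000 UMIs they held in total (UPM), with exact 95% Poisson intervals in brackets. Where 4 library values stand in a row, their order is caput, corpus, cauda, vas deferens. Ratios carry exact 95% intervals conditional on the sum of the counts. Both cover counting error only, and the range over libraries with at least 10 cells of a type is the spread set beside them. The cell types were defined by the study from these counts, with *Itga6* and *Itgb6* among the genes that described its basal cells, so the differences between types are descriptions and were not tested. With 3′ counts, levels of different genes are not compared.

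The 8 genes divided among 4 cell types by their highest level. *Itgb4*, *Itga3* and *Itgb6* were highest in basal cells, *Itgb1*, *Itga1* and *Itga5* in muscle cells, *Itga6* in endothelial cells and *Itgav* in clear cells. None was highest in principal cells, which made up 44.5% of all cells. In 5 of the 8 (*Itga6*, *Itgb4*, *Itga3*, *Itga1*, *Itgb6*) the highest type was at least 4 times the median of the 7 types, a bound passed by 37.2% of the 11352 genes that reached 20 UMIs in their highest type. In 3 of the 8 the bound was passed with basal cells highest, as in 3.14% of the 11352. The members were chosen with earlier results of these data known, so these shares are no result about them. As a mean over cells and with size factors, 5 members were highest in basal cells and 0 in endothelial or clear cells, and 0 were highest in clear cells as a mean over libraries or with changed totals. Without the cauda library, *Itga6* and *Itgav* were highest in basal cells, at 0.998 and 0.704 of the basal level in endothelial and clear cells. The ratio of the highest type to the median of the 7 types had a median of 10.998 over the 8 genes and 2.74 over the 11352. The bound of 4 times was also passed by 8 of the 11 other integrin subunits tested (72.7%) and 7 of 11 laminin chains.

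**Figure D1:**
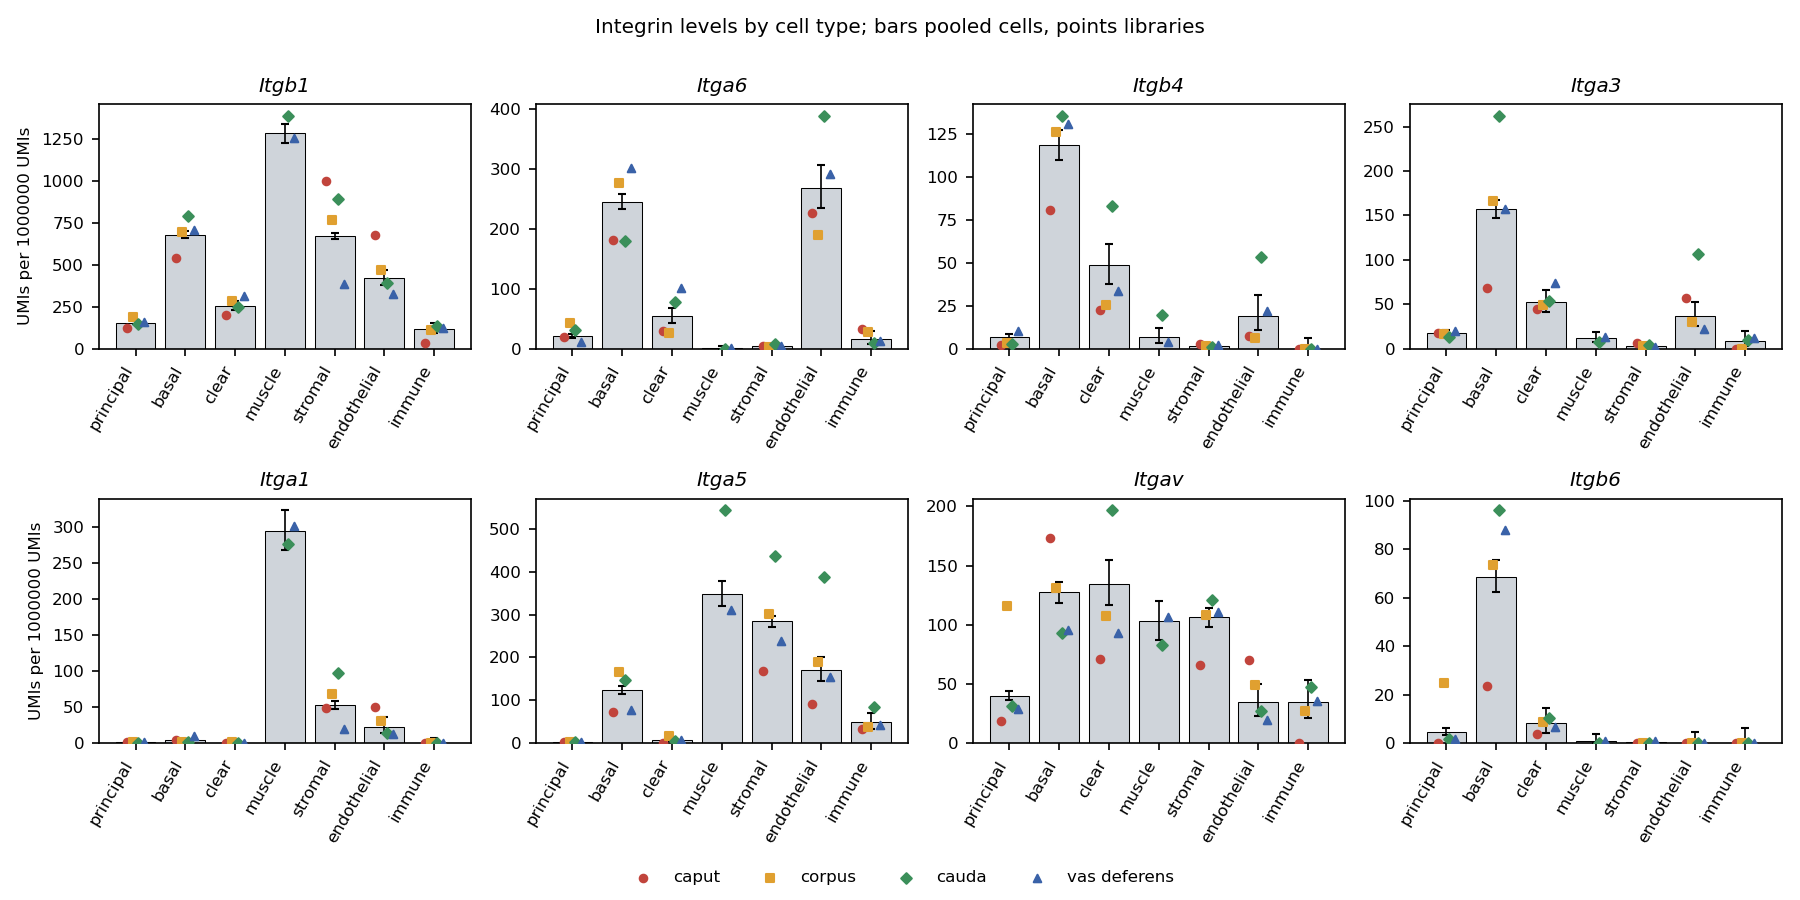
Level of each integrin (vertical axis, UMIs per 1000000 UMIs) in the 7 cell types (horizontal axis). Bars show all cells of a type with their 95% Poisson interval, and points show each library with at least 10 cells of that type. *Itgb1* was measured in every type, *Itgb6* stood at 68.7 in basal cells against 8.21 or less elsewhere, and *Itgav* had no type whose libraries stood apart from those of the next.

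*Itgb1*, the shared β chain, was found in every type. Its level was 1282 UPM (1226 to 1340) in muscle, 678 (657 to 698) in basal, 671 (651 to 691) in stromal, 419 (376 to 465) in endothelial, 257 (231 to 284) in clear, 154 (146 to 162) in principal and 119 (92.2 to 150) in immune cells. Muscle stood 1.89-fold (1.79 to 2.00) above basal cells, and the muscle libraries (1388 in the cauda, 1257 in the vas deferens) lay above all 4 basal libraries. Basal and stromal cells could not be ordered, with a ratio of 1.01 (0.968 to 1.05) and overlapping libraries. After each cell was thinned to 1000 UMIs, the transcript was seen in 45.5% of basal, 70.2% of muscle and 13.8% of principal cells.

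*Itga6*, the laminin-binding partner of β1 and β4, was highest in vessel and basal epithelial cells. Its level was 268 UPM (234 to 306) in endothelial and 245 (233 to 258) in basal cells, a ratio of 1.09 (0.947 to 1.26) that does not order them. Endothelial levels were 226, 189, 388 and 290 by library, the cauda resting on 12 cells, and basal levels of 181, 276, 180 and 301 overlapped them. Clear cells followed at 54.7 (43.4 to 68.1), 4.48-fold (3.57 to 5.68) below basal cells and outside the range of the basal libraries. Principal cells were at 20.4 and immune cells at 15.5, whereas stromal cells were at 4.32 and muscle cells at 0.656, from 1 UMI.

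*Itgb4*, the hemidesmosomal β chain, was highest in basal cells at 119 UPM (110 to 127), 2.44-fold (1.91 to 3.16) above clear cells at 48.6 (37.9 to 61.3). By library, basal cells held 80.8, 127, 136 and 131, and clear cells 22.6, 25.7, 82.9 and 33.4. The ranges met because the cauda clear cells reached the level of caput basal cells, while within each library basal cells were the higher. Without the cauda library, basal over clear cells was 4.43-fold. In endothelial cells *Itgb4* was at 19.2 (10.95 to 31.1), from 16 UMIs. Immune cells had 0 UMIs, with an upper Poisson limit of 6.34 UPM, where a floor of 3 UMIs stands at 5.15.

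*Itga3*, whose product binds laminin together with β1, followed the same order with 157 UPM (147 to 167) in basal and 52.7 (41.6 to 65.8) in clear cells, a ratio of 2.98 (2.36 to 3.81). Endothelial cells were at 37.1 (25.2 to 52.7), not separable from clear cells at 1.42-fold (0.924 to 2.23). All 4 basal libraries (68.7, 167, 262 and 158) exceeded the clear cells of their own library.

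In cells brought to 1000 UMIs, *Itga6* had a UMI in 227 of 1155 basal cells, 19.7% (17.4 to 22.1, Clopper-Pearson), and *Itgb4* in 126, 10.9% (9.17 to 12.9). The same shares in muscle, a tissue without hemidesmosomes, were 0.275% and 0.826% of 363 cells. Before thinning, the shares were 52.1% and 36.5% in basal cells, with a median of 4333 UMIs, and 0.199% and 1.59% in muscle cells, with a median of 1803. UMIs of both genes met in 33 basal cells (2.86%, 1.97 to 3.99) and 4 clear cells (1.68%, 0.460 to 4.25), and in 0 cells of the other 5 types. In endothelial cells 45 of 200 had an *Itga6* UMI and 2 an *Itgb4* UMI. The share of basal cells with *Itgb4* was 14.5% among those with *Itga6* and 10.0% among those without. The part of depth in these shares was not tested.

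*Itga1*, the collagen-binding α chain, was the muscle gene of the group. Its level was 294 UPM (268 to 323) in muscle, 52.1 (46.7 to 58.0) in stromal and 22.7 (13.7 to 35.5) in endothelial cells, and 3.56 or lower in basal, principal, clear and immune cells. Muscle was 5.65-fold (4.90 to 6.53) above stroma, and its libraries (276 in the cauda, 300.4 in the vas deferens) lay beyond every stromal library (19.5 to 97.1). Without the vas deferens library the ratio was 3.66. A UMI was found in 30.3% of thinned muscle cells and 0.260% of thinned basal cells. *Itga1* overlaps *Pelo*, a ribosome rescue gene, on the same strand, and the counting method for such overlaps was not given in the sources used here. *Pelo* has 852 UMIs of its own in the table.

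*Itga5*, the fibronectin-binding α chain, ran through muscle at 348 UPM (319 to 379), stroma at 284 (272 to 298), endothelium at 171 (144 to 202) and basal cells at 123 (115 to 132), and was 8.21 in clear and 2.20 in principal cells. It was thus a transcript of basal cells but not of the luminal epithelium, with 762 UMIs in 1412 basal cells and 21 in 3956 principal cells. Muscle exceeded stroma by 1.22-fold (1.11 to 1.35) with overlapping libraries, and this order rested on the muscle population with few UMIs. In the deeper muscle population *Itga5* was at 268, and leaving out 4 populations of low depth turned the ratio to 0.984.

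*Itgav*, the α chain that pairs with β1 and β6 and binds the RGD motif, had the flattest profile. Clear, basal, stromal and muscle cells were at 135 (117 to 155), 127 (119 to 136), 106 (98.4 to 114) and 103 (87.5 to 120) UPM, followed by principal cells at 40.1 (36.2 to 44.4), endothelial cells at 34.7 and immune cells at 34.4. Clear over basal cells was 1.06 (0.901 to 1.24), and no neighbors in the order had libraries that stood apart.

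*Itgb6*, whose product pairs only with αv, was highest in basal cells. Basal cells held 425 of its 485 UMIs, at 68.7 UPM (62.4 to 75.6), 8.37-fold (4.74 to 16.3) above clear cells at 8.21 (4.24 to 14.3). Endothelial and immune cells had 0 UMIs, where the floor of 3 UMIs stands at 3.59 and 5.15 UPM, and muscle and stromal cells had 1 and 2 UMIs. All basal libraries (23.4, 73.4, 96.2 and 88.1) lay above all clear libraries. Principal cells were at 4.70 over all libraries but at 24.7 (17.2 to 34.3) in the corpus, from 35 of their 45 UMIs, beside 23.4 in basal cells of the caput.

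The corpus signal of principal cells came largely from 1 population. Principal cells were divided by the study into 15 populations, and principal 6, of 341 cells with 327 from the corpus, had *Itgav* at 244 UPM (104 UMIs in 81 cells) and *Itgb6* at 51.7 (22 UMIs in 16 cells). For *Itgb6* the interval of 32.4 to 78.2 held the level of the main basal population, 59.8. The next population for each gene was principal 7, also of the corpus, with 80.8 for *Itgav*, 3.02-fold (2.15 to 4.30) lower, and 12.4 for *Itgb6*, 4.16-fold (1.78 to 10.8) lower. *Itga6* was also highest there, at 103 against 59.5 in principal 10, 1.74-fold (1.01 to 3.08), while *Itgb1* at 263 did not stand above principal 11 at 257. All 4 of the members that had at least 20 UMIs in their highest principal population were highest in principal 6, as were 20.3% of the 5996 genes with that count. Because the minimum was applied in the highest population, a gene entered only where it was high, and the count is no result about the members. *Itga3* and *Itgb4*, with 40 and 22 UMIs in principal 12, were left out by it. *Itga3* was highest in principal 6 at 28.2, from 12 UMIs. *Itgb4* was at 4.70 in principal 6 and highest in principal 14, at 14.7 from 7 UMIs.

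**Figure D2:**
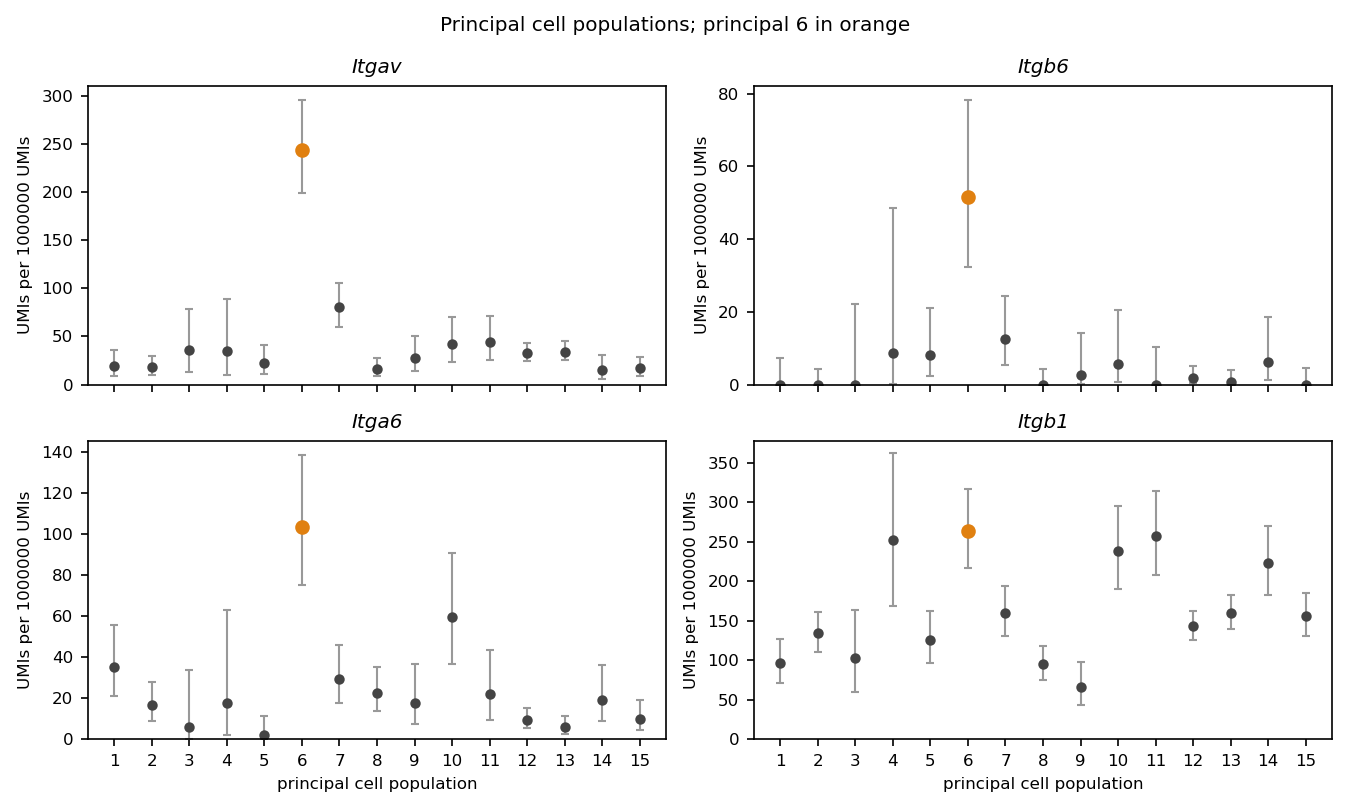
Levels of *Itgav*, *Itgb6*, *Itga6* and *Itgb1* (vertical axes, UMIs per 1000000 UMIs, from 0) in the 15 principal cell populations (horizontal axis) with 95% Poisson intervals. Principal 6, in orange, was at 244, 51.7, 103 and 263, and for *Itgb1* its interval met those of several other populations.

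Basal markers were lower in principal 6 than in the main basal population. *Krt5*, *Krt14* and *Trp63* were at 11.7, 25.8 and 2.35 UPM, compared with 295, 2911 and 54.7 in the main basal population. Without the 11 cells that had a *Krt5* or *Krt14* UMI, *Itgav* was at 240 and *Itgb6* at 50.9, and without the 1 called doublet they were at 240 and 50.0. At a median of 787 UMIs per cell, these transcripts can be present without being seen, and the doublet calls recovered 43.0% of simulated doublets. A basal source of the integrin UMIs was not tested. No cell held more than 4 UMIs of either gene. Ribosomal protein genes made up 5.26% of UMIs in principal 6 and 15.1% in principal 7. With those genes left out of the totals, principal 6 over principal 7 was 2.71 for *Itgav*, 3.73 for *Itgb6*, 3.14 for *Itga6* and 1.47 for *Itgb1*, and the median over the 4471 genes compared was 1.05 before they were left out. The part of the ribosomal share in this difference was not tested beyond that.

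Among the 4 regions, several integrins of basal cells were lowest in the caput. *Itga3* was at 68.7 UPM (55.7 to 83.9), 167 (151 to 184), 262 (231 to 297) and 158 (137 to 180). The cauda exceeded the caput by 3.82-fold (3.01 to 4.88). *Itgb6* was at 23.4 (16.1 to 32.8), 73.4 (63.1 to 84.9), 96.2 (77.5 to 118) and 88.1 (73.0 to 105), with 4.11-fold (2.74 to 6.32) between cauda and caput. Both stayed so within the main basal population, at 4.35-fold (3.30 to 5.79) and 5.03-fold (3.15 to 8.32), where 3 of 7 members and 45.6% of 6668 genes reached a 2-fold range. *Itgb1* and *Itgb4* were also lowest in the caput, by 1.46-fold (1.32 to 1.61) and 1.68-fold (1.30 to 2.18), whereas *Itgav* had its highest basal level there, at 174 (153 to 197) against 93.1 (74.7 to 115) in the cauda, and *Itga6* was lower in caput and cauda (181 and 180) than in corpus and vas deferens (276 and 301). *Itga5* was at 73.7, 167, 148 and 77.7, so its low values lay at both ends of the duct. With *Itga5*, 3 of 7 members had the caput lowest and a range of at least 2-fold over the libraries, as had 11.1% of 7258 genes in basal cells. Within the main basal population *Itga5* was lowest in the vas deferens, at 67.3 against 68.98 in the caput.

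**Figure D3:**
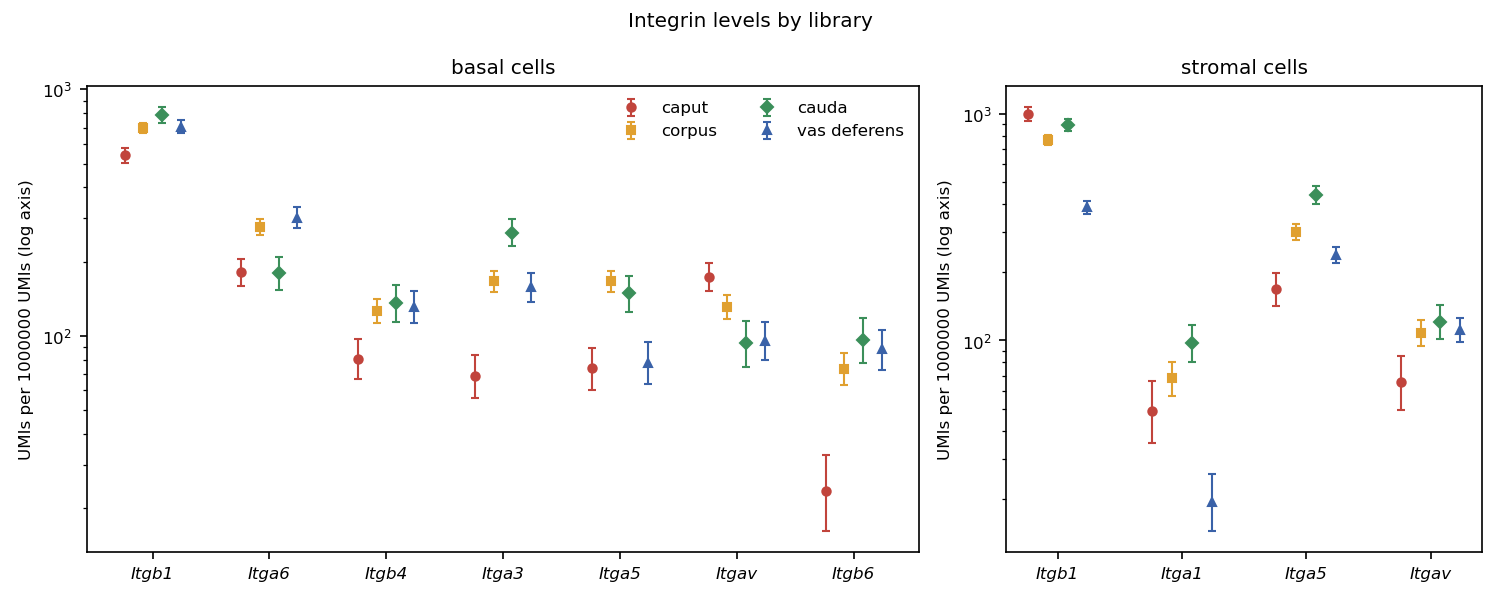
Levels by library (vertical axes, UMIs per 1000000 UMIs, log scale) with 95% Poisson intervals for 7 integrins in basal cells and 4 in stromal cells. In basal cells the caput was lowest for *Itga3* (68.7) and *Itgb6* (23.4) and highest for *Itgav* (174), and in stromal cells the vas deferens was lowest for *Itgb1* (386) and *Itga1* (19.5).

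In stromal cells the order was another one. *Itgb1* was at 996 UPM (930 to 1066), 764 (726 to 804), 893 (840 to 949) and 386 (362 to 411), and *Itga1* was at 49.0, 68.1, 97.1 and 19.5. The vas deferens held 517 of the 549 stem-like stromal cells, a population with *Itgb1* at 207 and *Itga1* at 6.13. Within myofibroblasts, with 162 to 420 cells in each library, *Itgb1* ranged by 1.43-fold (1.30 to 1.57), at 930, 678, 970 and 692, and *Itga1* was at 40.8, 61.7, 112 and 46.0. *Itga5* was instead at 146, 274, 464 and 90.4 in myofibroblasts, 5.13-fold (3.86 to 6.95) between cauda and vas deferens, and at 169, 301, 438 and 238 in all stromal cells. *Itga5* was at 307 in stem-like and 300.5 in secretory stromal cells, of which 213 of 226 came from the vas deferens, and at 833 in fibroblast C4 of the vas deferens.

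Counted over the members, a highest library at least 2 times the lowest, with at least 20 UMIs in the highest, was found for 3 of the 7 that could be judged in basal cells, where 43.6% of 7258 genes passed the same rule. The count was 4 of 6 in principal cells (66.7% of all genes), 2 of 3 in clear cells (44.0%) and 3 of 4 in stromal cells (48.7%). With so few members, none of these shares is a result about the integrins. The counts each leaned on 1 library, and fell to 1 in basal cells without the caput, 2 in principal cells without the corpus, 0 in clear cells without the cauda and 1 in stromal cells without the vas deferens. In principal cells the 4 were *Itga6*, *Itgav* and *Itgb6*, highest in the corpus, with 19.5% of 9122 genes also past the bound and highest there, and *Itgb4*, at 10.5 in the vas deferens and 2.32 in the caput. In clear cells they were *Itgb4*, at 82.9 in the cauda and 22.6 in the caput, and *Itgav*, at 197 and 71.4.

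Within the cell types, the populations with few UMIs per cell carried higher levels of the integrins that had enough UMIs than their deeper counterparts. In low-UMI basal cells, 315 cells with a median of 900 UMIs, *Itgb1* was at 1578 UPM against 618 in the main basal population (median 5654), 2.55-fold (2.33 to 2.80) higher. The other 6 basal integrins were higher by 2.24-fold (*Itgb4*) to 3.78-fold (*Itgav*, 3.13 to 4.54). Muscle 1 over muscle 2 was 2.99-fold for *Itgb1* and 3.16-fold for *Itga1*, fibroblast C4 over myofibroblasts was 2.69-fold for *Itgb1*, and low-UMI over main clear cells was 2.97-fold for *Itgav*. Below that minimum, low-UMI clear cells held 2 UMIs of *Itga3*, at 45.8 UPM against 53.3 in main clear cells, and 3 of *Itgb4*, at 68.7 against 55.1. Of the members, 18 ratios had at least 20 UMIs in 1 population and more than 3 in both, and 18 were at least 2. In low-UMI clear cells 3 UMIs stand at 68.7 UPM, so *Itga3* and *Itgb4* could enter there only if raised. The count is thus partly set by the minimum. Under the same minimum, 23.2% of genes in basal cells, 18.7% in stroma, 26.4% in muscle and 40.8% in clear cells were at least 2 times higher. The median gene was at 1.31, 1.29, 1.45 and 1.75.

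**Figure D4:**
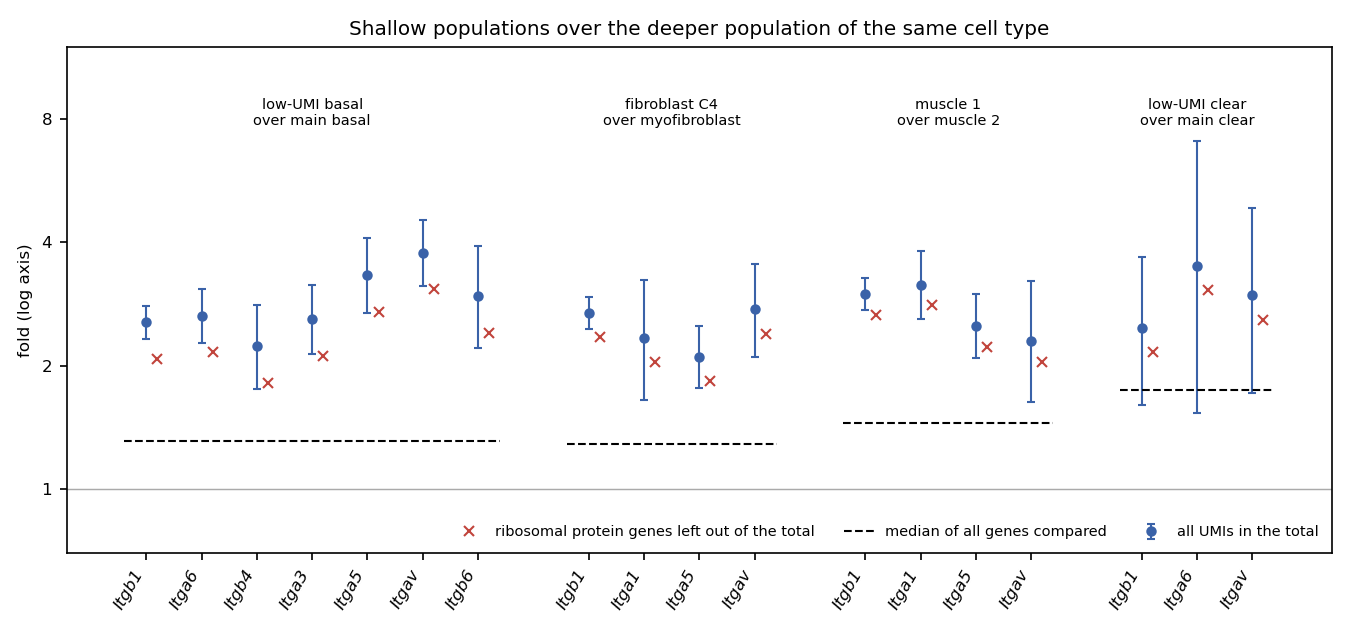
Fold of each integrin past the UMI minimum in a population of low depth over the deeper population of the same cell type (vertical axis, log scale) with 95% intervals. Dashed lines mark the median of all genes compared, and crosses the fold with ribosomal protein genes left out of the totals. The circles lie between 2.11 and 3.78, above the dashed lines at 1.29 to 1.75, and only in clear cells did the intervals reach the line.

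The ribosomal share moved with these levels. Ribosomal protein genes were 6.85% of UMIs in low-UMI and 24.3% in main basal cells, and 2.71% to 6.87% against 13.4% to 18.8% in the other pairs. With them left out of the totals the integrin ratios were between 1.82 and 3.07, and the part of depth or RNA quality in what remained was not tested. In low-UMI basal cells 6 of 6 members passed the regional rule (60.8% of 895 genes did), with *Itga5* at 59.0 in the caput and 614 in the corpus.

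**Figure D5:**
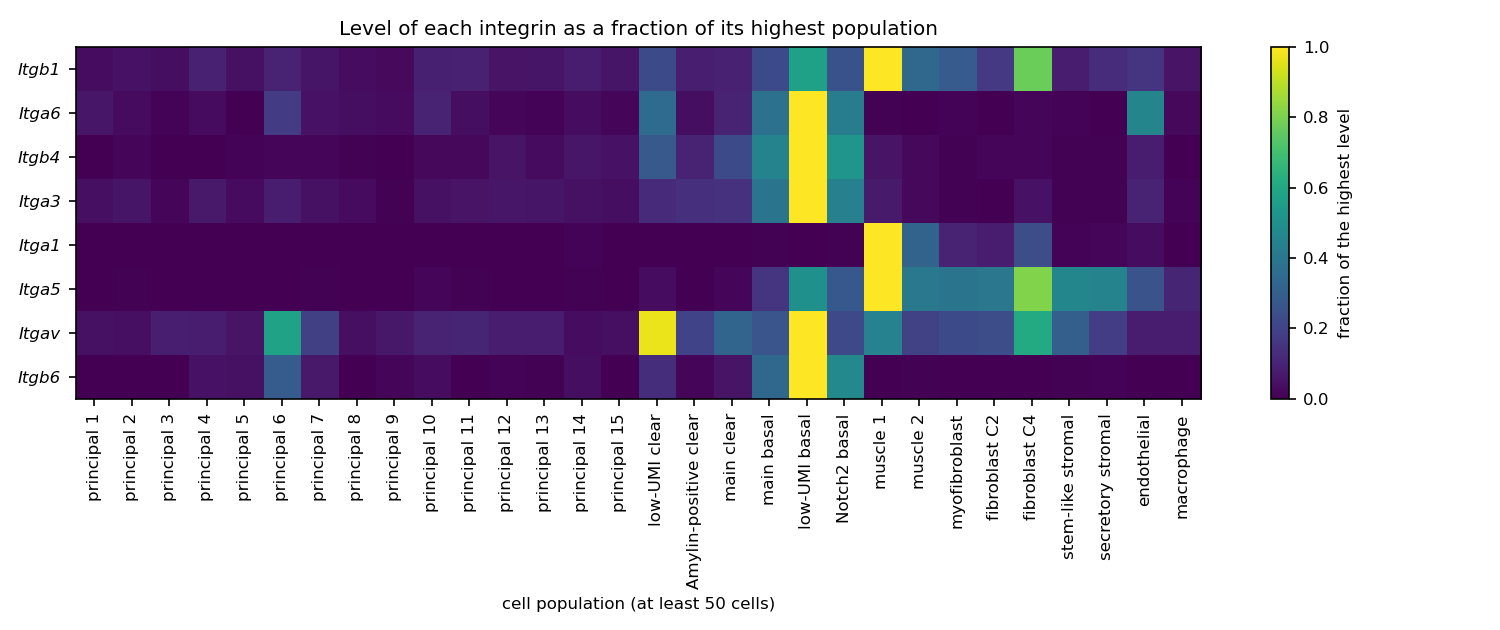
Level of each integrin in the 30 populations with at least 50 cells, as a fraction of its highest population (color scale from 0 to 1). *Itga6*, *Itgb4*, *Itga3* and *Itgb6* had their highest level in low-UMI basal cells, *Itgb1*, *Itga1* and *Itga5* in muscle 1, and *Itgav* in low-UMI basal cells.

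Among the smaller populations, *Notch2* basal cells had basal levels of the laminin receptors, with *Itga6* at 248, *Itgb4* at 127 and *Itga3* at 162 UPM, and *Itgb6* at 83.0. Macrophages held *Itga5* at 68.5 and *Itgb1* at 147, and the 44 T cells *Itgb1* at 36.3.

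The genes most like each member were sought by correlation of log2(UPM + 1) over the 30 populations among 11083 genes with at least 100 UMIs. These populations share libraries and differ in depth, and the values are descriptions. *Itgb1* was followed most closely by *Prkab2* (Pearson r of 0.927), *Actn1* (0.914), an actin cross-linker of adhesion plaques, and *Macf1* (0.883), a spectraplakin. For *Itgb4* they included *Actn4* (0.873) and *Ctnna1* (0.871), which encodes α-catenin. For *Itga6* they included the growth factor gene *Hbegf* (0.813) and *Fxyd3* (0.785), and for *Itga3* *Arap2* (0.840), the epithelial gene *Sfn* (0.818) and *Wee1* (0.815), a cell cycle kinase. *Itga1* had the smooth muscle gene *Myl9* (0.937) and then *Speg* (0.936) after *Aoc3* (0.955). *Itga5* had *Fosl2* (0.941), *Samd4* (0.930) and *Slc12a4* (0.927), *Itgav* had *Sppl3* (0.904), *Crebbp* (0.896) and *9530068E07Rik* (0.854), and *Itgb6* had *Sprr1a* (0.788), *Wee1* (0.783) and *Mfsd7b* (0.777). Among the members themselves, r was highest between *Itgb1* and *Itga5* (0.797) and between *Itgb4* and *Itga3* (0.789), and lowest between *Itga6* and *Itga1* (-0.473).

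The ligands of these receptors were read from a fixed list. Of 11 laminin chains, 7 had a highest type at least 4 times the median, 3 of them in basal cells. *Lama3* (70.5 UPM) and *Lamb3* (122), laminin chains of epithelial basement membranes, were highest in basal cells, as were *Itga3* and *Itgb4*. The 2 laminin chains were at 2.20 and 2.20 in principal cells. *Lama2*, a chain of muscle and stromal laminins, was highest in stroma at 137. All 9 collagens passed, 6 of them with stroma highest, led by *Col1a1* (913), *Col1a2* (1195) and *Col3a1* (767). Of 8 RGD and other matrix ligands 6 passed, among them *Nid1* (199) and *Vtn* (13.9) in stroma and *Spp1* (84.2) in immune cells. These counts stand beside 37.2% of the 11352 genes tested, with basal cells highest in 3.14% and stroma highest in 747 genes.

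Of the 4 hemidesmosome partners, *Col17a1*, a transmembrane collagen of hemidesmosomes, was at 70.8 UPM (64.4 to 77.8) in basal cells and 8.38 or lower elsewhere, while *Plec* and *Dst*, which link intermediate filaments to junctions in many tissues, were highest in endothelium (287) and muscle (283), with 262 and 161 in basal cells. In the adhesion plaque list 10 of the 18 genes tested passed, 6 with muscle highest. *Fermt1*, the epithelial kindlin that activates integrins, was at 71.3 in basal cells and 16.4 in clear cells, *Lims2* at 146 in muscle and *Fermt3*, the kindlin of blood cells, at 41.2 in immune cells. Of the 7 genes of latent TGF-β 4 passed, with *Ltbp1* highest in stroma (113), *Tgfb3* in clear cells (45.2) and *Tgfb1* in immune cells (194), so none of the 3 was highest where *Itgb6* was. The same 37.2% of all genes stands beside these counts, with muscle highest in 595 of the 11352 tested.

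Among the other integrin subunits with at least 100 UMIs, *Itga8*, a partner of β1, was at 200 UPM (189 to 211) in stroma and 17.05 or lower in every other type, and *Itga7*, a laminin receptor of muscle, at 61.6 (49.8 to 75.4) in muscle and 17.1 in stroma. *Itga2*, a collagen receptor, was at 40.6 (35.7 to 45.9) in basal cells, and *Itgb8*, a partner of αv, at 11.5 (8.97 to 14.5). *Itga9* was at 56.3 in endothelium and 42.0 in muscle, and *Itgb5* at 80.0 in clear and 63.1 in basal cells. *Itga2b*, known as the platelet α chain, was at 135 UPM (127 to 142) in principal cells, 225 (212 to 239) in those of the vas deferens and 30.8 (23.0 to 40.2) in those of the caput, where the platelet markers *Pf4*, *Ppbp* and *Gp1bb* together were at 1.78 over all principal cells. *Itgam*, of myeloid cells, was at 29.2 in immune and 12.2 in principal cells.

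In the GRCm38 annotation, *Itgb1* lies at chr8:128685654-128733200 on the plus strand and *Itgb6* at chr2:60598292-60722643 on the minus strand. *Itga6* (chr2:71745616-71858416) and *Itgav* (chr2:83724397-83806916) lie on the same chromosome as *Itgb6* and are read from the plus strand. *Itgb4* (chr11:115974709-116008412, plus) and *Itga3* (chr11:95044474-95076801, minus) share chromosome 11, *Itga1* is at chr13:114953096-115101964 and *Itga5* at chr15:103344286-103366763, both on the minus strand. RefSeq promoters of 300 bases, 250 before the start and 50 after it (GRCm38.p6), were found for 6 of the 8, without *Itga6* and *Itgb4*. The promoters of *Itgb1*, found in every type, and *Itgb6*, highest in basal cells, are shown because they differ in CG pairs, given in capitals, with 27 for *Itgb1* (chr8:128685404-128685703, plus strand) and 12 for *Itgb6* (chr2:60722554-60722853, minus strand). Over 32851 promoters the median was 7.

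*Itgb1* promoter: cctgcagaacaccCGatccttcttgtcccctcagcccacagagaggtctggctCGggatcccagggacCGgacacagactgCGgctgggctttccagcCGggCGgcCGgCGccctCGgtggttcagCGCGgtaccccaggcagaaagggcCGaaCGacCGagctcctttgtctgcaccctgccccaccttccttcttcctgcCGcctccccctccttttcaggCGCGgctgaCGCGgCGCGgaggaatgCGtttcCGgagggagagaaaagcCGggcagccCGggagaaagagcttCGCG

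*Itgb6* promoter: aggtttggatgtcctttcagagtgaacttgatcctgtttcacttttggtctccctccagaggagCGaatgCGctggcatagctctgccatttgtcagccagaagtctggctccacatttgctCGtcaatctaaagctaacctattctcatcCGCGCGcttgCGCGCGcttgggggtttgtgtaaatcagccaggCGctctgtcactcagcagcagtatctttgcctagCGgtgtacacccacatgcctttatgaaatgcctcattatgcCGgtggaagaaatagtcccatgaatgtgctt

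The other first entries held 24 CG pairs in *Itga3* and *Itgav*, 13 in *Itga5* and 12 in *Itga1*. The motif TGANTCA, searched on both strands, was in 0 of these 6 entries and in the second *Itga3* entry, and 7.81% of all promoters held it.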

How the data were processed

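The deposited counts are whole UMIs per gene and cell. The authors aligned 10x 3′ reads to mm10 (GRCm38) with HISAT2 2.0.4, counted UMIs per RefSeq gene with ESAT, ignored multimapping reads, kept cells within limits of total UMIs and removed an estimate of ambient RNA with a modified SoupX (3.54% of UMIs), which could not be undone. The deposited size factor of each cell, a ratio made by the authors with scran, served only in an alternative. Cell labels are theirs, and population numbers were matched to the study through cell counts. Strand use in counting was not given in the sources used here.

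Levels are UMIs summed over cells per 1000000 UMIs (UPM). With 1 library per region no test was run, and p-values are not given. Intervals (95%) are Clopper-Pearson for shares, exact Poisson for levels and, for ratios, conditional on the summed counts, and cover counting error only. A group of 0 UMIs was given a floor of 3. In principal cells this floor was 0.641 UPM in the vas deferens and 2.11 in the corpus, and in immune cells of the caput it was 98.0, so the precision differs widely between types. Shares used 1000 UMIs drawn per cell with a fixed seed, leaving out shallower cells (2062 principal, 257 basal and 139 muscle cells). Doublets were called within each library from simulated doublets, of which 43.0% were recovered. They stayed in, except in an alternative. Tables were made in Python 3.11.15 with pandas 2.3.3 and numpy 2.4.6, intervals with scipy 1.17.1, doublet calls with scikit-learn 1.9.0 and plots with matplotlib 3.10.9.

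The members and gene lists were chosen with earlier results of these data known. Genes named beside the members are other integrins with at least 100 UMIs, up to 3 genes per list with the largest ratio of the highest type to the median of the types (*Vtn*, with a median of 0, was taken as the largest), the 3 most like genes of each member (2 of the 24 are not reported here), and *Plec* and *Dst* as the next of a list of 4. No integrin sequence motifs were searched in proteins, which were not used here.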

Additional observations from a re-analysis of the deposited data

Results flagged for a closer look

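The difference between vas deferens and caput had opposite directions in different cell types for 3 integrins, with counting intervals on either side of 1. The difference between types was not tested, since each region is 1 library, and the intervals leave out variation between animals and dissections. *Itgb1* in the vas deferens was 1.31 times its caput level in basal cells, 1.32 times in principal cells and 1.57 times in clear cells, but 0.387 times in stromal cells. Of the 549 stem-like stromal cells, 517 were from the vas deferens. Within myofibroblasts *Itgb1* was at 692 UPM in the vas deferens and 930 in the caput. The part of stromal makeup in the difference was not tested. *Itga6* was 1.66 times its caput level in basal cells and 3.33 times in clear cells, but 0.547 times in principal cells, whose populations are nearly all of 1 region. The clear cell ratio (1.32 to 9.06) rested on 15 UMIs in the vas deferens and 8 in the caput, below the regional minimum of 20. Low-UMI clear cells made up 34.2% of clear cells in the vas deferens and 8.22% in the caput. The summed basal markers *Krt5*, *Krt14* and *Trp63* were at 267 UPM in clear cells of the vas deferens and at 6.42 in the lowest library. *Krt14* was at 550 in low-UMI clear cells and 20.2 in main clear cells. The part of this makeup, or of a basal source of the UMIs, was not tested. *Itgav* was 0.550 times its caput level in basal cells, but 1.54 times in principal cells and 1.69 times in stromal cells.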

How the results depend on the processing

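Of 249 recomputed values over 24 results, 189 stayed within the counting interval or, for counts, within 1.5 times, 59 moved and 1 reversed, counting a reversal where the interval of the reported ratio excluded 1. *Itga6* and *Itgav*, whose intervals included 1, also fell below 0 on the log2 scale in some settings. *Itga3* and *Itgb6*, basal over clear cells, stayed within their intervals under all alternatives run. The reversal was *Itga5*, muscle over stromal, at -0.023 on the log2 scale without 4 low-UMI populations, an alternative added after seeing the data. In the same setting *Itgb1* (muscle over basal) was 0.56 and *Itga1* (muscle over stromal) 2.12, and 1 member was highest in stroma. As a mean over cells, log2 ratios were 1.11 for *Itgb1*, -0.56 for *Itga6* (endothelial over basal), 2.93 for *Itga1*, 0.52 for *Itga5* and -0.27 for *Itgav* (clear over basal). With size factors *Itgav* was at -0.27, and in both settings 5 members were highest in basal, 0 in clear and 0 in endothelial cells. As a mean over libraries *Itga5* was at 0.58, and with the 100 top genes out of the totals *Itgb1* was at 0.65, *Itga5* at 0.15 and *Itgav* at -0.18. *Itgb1* was at 1.04 without the population named low in UMIs and 0.72 with ribosomal protein genes out of the totals (added after seeing the data). In the mean over libraries and in both changes of the totals 0 members were highest in clear cells. The cause was not tested.

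Leaving out 1 library at a time gave log2 ratios of 0.84 to 1.06 for *Itgb1*, -0.0032 to 0.36 for *Itga6*, 0.93 to 2.15 for *Itgb4*, 1.87 to 2.82 for *Itga1*, 0.21 to 0.74 for *Itga5* and -0.51 to 0.39 for *Itgav*, with 3 to 5 members highest in basal, 0 to 1 in clear and 0 to 1 in endothelial cells. Members past the regional fold then numbered 2 to 4 in principal, 1 to 3 in basal, 0 to 3 in clear and 1 to 3 in stromal cells. At a fold of 1.5 there were 6 in basal cells, at a fold of 3 there was 1 in clear and 1 in stromal cells, and at 50 UMIs there were 2 in principal and 1 in clear cells. The shares of basal cells with *Itga6*, *Itgb4* and both followed the depth, at 13.8%, 6.36% and 0.898% with 500 UMIs, 52.1%, 36.5% and 22.6% without thinning, and 4.16%, 0.693% and 0.0866% for cells with at least 2 UMIs. Of the 24 most like genes, 8 were kept by Spearman correlation, 9 with a pseudocount of 10 and 13 over populations of at least 100 cells.

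No paired analysis was possible because animals were pooled within each region, which leaves 1 library per group.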

Other observations

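UMIs of a possible receptor pair were also counted in cells thinned to 1000 UMIs, as values with no test. *Itga5* and *Itgb1* met in 93 of 363 muscle cells (25.6%, 21.2 to 30.4), 139 of 1695 stromal cells (8.20%, 6.94 to 9.61) and 75 of 1155 basal cells (6.49%, 5.14 to 8.07). *Itga1* and *Itgb1* met in 86 muscle cells (23.7%, 19.4 to 28.4) and 36 stromal cells (2.12%, 1.49 to 2.93), and *Itga3* and *Itgb1* in 96 basal cells (8.31%, 6.78 to 10.1). *Itgav* and *Itgb6* met in 10 basal cells (0.866%, 0.416 to 1.59) and 2 principal cells. *Itgb1* was seen in 80.2% of muscle cells with *Itga5* and 65.6% without. These shares were 41.2% and 41.0% in stromal cells and 59.1% and 43.9% in basal cells. By *Itga1* they were 78.2% and 66.8% in muscle and 56.25% and 40.5% in stromal cells. By *Itga3* they were 56.5% and 43.7% in basal cells. *Itgb6* was seen in 6.99% of basal cells with *Itgav* and 7.31% without, and in 2.67% and 0.550% of principal cells. Each type pools populations that differ in these levels. *Itgb1* was at 2748 UPM in muscle 1 and 919 in muscle 2, and *Itga5* was at 671 and 268. The part of this pooling in the shares was not tested. A UMI of each shows capture of both transcripts in a cell, not a receptor at its surface.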
